A study of Mus musculus with 108 samples.

Results

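Apolipoproteins and the genes that move cholesterol out of cells were described in myeloid cells sorted from the brains of mice with lung-to-brain metastases. The 9 genes were the apolipoproteins Apoe, Apoc1, Apoc2 and Apoc4, the efflux transporters Abca1 and Abcg1, the lipase Lpl, the nuclear receptor Nr1h3 and the esterifying enzyme Soat1. They were taken by symbol from the 49585 genes of the deposited count table, and each symbol was found in 1 row. No measured value was used to choose them, although earlier results of these data were known when the list was made.

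All mice, controls included, were athymic nudes on the Balb/C background (CAnN.Cg-Foxn1nu/Crl), which lack a thymus and therefore most T cells. The 108 libraries of total RNA fell into 28 groups. Controls without a tumour were microglia (n = 4), microglia whose titles carry a 5x2 schedule at day 3 (n = 3) or day 5 (n = 3) but whose radiotherapy field reads none, and monocytes from blood (n = 4). From tumour-bearing brains 4 populations were sorted: microglia, bone marrow-derived macrophages (BMDM, the macrophages that arise from blood monocytes), inflammatory monocytes and granulocytes. Unirradiated mice were grouped by tumour stage, with 5 libraries at the small and 5 at the large stage for microglia and BMDM, and 4 and 5 for monocytes and granulocytes. Each population was also taken after whole brain radiotherapy, as 5 fractions of 2 Gy at day 3 (n = 4), day 5 (n = 4) and day 10 (n = 3) or as 1 fraction of 10 Gy at day 3 (n = 3). The irradiated mice were not stratified by tumour stage and no label gives the starting point of the day count. The labels do not tie a library to its animal, so p-values measure only how far these libraries spread, which may be technical.

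Apolipoprotein E is the main lipid carrier made in the brain, by astrocytes and by activated microglia, and Apoc1, Apoc2 and Apoc4 lie beside it in 1 gene cluster. ABCA1 passes cholesterol and phospholipid from the cell to lipid-poor apolipoproteins such as apolipoprotein E, and ABCG1 passes cholesterol to formed particles. Nr1h3 encodes liver X receptor alpha (LXR alpha), a receptor for oxidised cholesterol that turns on Apoe, Apoc1, Abca1, Abcg1 and Lpl in macrophages, whereas SOAT1 stores cholesterol as esters in droplets and lipoprotein lipase frees fatty acids from lipoproteins.

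On GRCm38, with GENCODE M21 gene models, the cluster lies on the minus strand of chromosome 7. It holds Apoe (ENSMUSG00000002985) at chr7:19696109-19699188, Apoc1 (ENSMUSG00000040564) at chr7:19689481-19692660, Apoc4 (ENSMUSG00000074336) at chr7:19678083-19681479 and Apoc2 (ENSMUSG00000002992) at chr7:19671579-19677941. Abca1 (ENSMUSG00000015243) lies at chr4:53030787-53159895 on the minus strand and Abcg1 (ENSMUSG00000024030) at chr17:31057675-31117988 on the plus strand. Lpl (ENSMUSG00000015568) lies at chr8:68880491-68907448 on the plus strand, Nr1h3 (ENSMUSG00000002108) at chr2:91184061-91202834 and Soat1 (ENSMUSG00000026600) at chr1:156424525-156474331, both on the minus strand.

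Promoters in the RefSeq table (build GRCm38.p6) were matched for 6 of the 9 genes: Apoe, Apoc2, Apoc4, Abca1, Nr1h3 and Soat1. The 2 shown belong to the members with the clearest differences in microglia, which are described next, and each runs from 250 bases before to 50 bases after the start of transcription. The Abca1 promoter lies at chr4:53159846-53160145 and the Apoe promoter at chr7:19699139-19699438, both read 5′ to 3′ on the minus strand. In the Abca1 sequence the capitals mark a match to the direct repeat that LXR binds (DR4, 2 copies of AGGTCA with any 4 bases between them), and in the Apoe sequence they mark GAGGAA, the core of the site read by the myeloid factor PU.1, on either strand.
Abca1: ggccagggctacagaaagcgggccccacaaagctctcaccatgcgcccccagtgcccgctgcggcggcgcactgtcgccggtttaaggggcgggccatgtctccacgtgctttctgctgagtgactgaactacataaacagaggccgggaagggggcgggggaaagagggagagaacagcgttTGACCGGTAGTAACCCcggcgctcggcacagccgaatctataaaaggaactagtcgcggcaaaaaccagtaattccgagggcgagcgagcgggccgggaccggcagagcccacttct
Apoe: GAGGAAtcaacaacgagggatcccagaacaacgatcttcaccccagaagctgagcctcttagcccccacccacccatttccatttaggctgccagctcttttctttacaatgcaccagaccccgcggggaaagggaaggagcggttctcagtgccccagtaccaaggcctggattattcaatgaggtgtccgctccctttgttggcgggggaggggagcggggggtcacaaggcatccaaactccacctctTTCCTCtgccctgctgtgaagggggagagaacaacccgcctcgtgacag
Both motifs were searched on both strands. With at most 2 mismatches in its 12 fixed bases the direct repeat was found in none of the 6 promoters and in 3.02% of 32851 promoters in the table. The limit was raised to 3 mismatches after that, and the Abca1 match then lay on the opposite strand from -67 to -52 relative to the start; 21.88% of promoters hold such a match. GAGGAA lay in the Apoe promoter from -250 to -245 on the same strand and from 2 to 7 on the opposite strand, and in 28.28% of all promoters. A match describes these letters and is not a binding site shown by these data.

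The libraries held 985423 to 18642747 counted reads. Microglia and granulocytes carried their defining markers. The summed level of 8 microglia markers was 6480 to 18900 CPM in tumour-free, small-stage and large-stage microglia. CPM is a gene's counts divided by the depth of its library in the usual unit. The sum of 8 granulocyte markers was 14400 to 44000 CPM in granulocytes. Monocyte markers summed to 3940 to 6200 CPM in small-stage and 4470 to 8170 CPM in large-stage tumour monocytes. In blood monocyte libraries 1 to 4 they summed to 1580, 755, 2200 and 7450 CPM, and the first 3 of these libraries were of doubtful quality, as defined below. Dendritic cell markers summed to 1460 to 2570 CPM in small-stage and 293 to 1900 CPM in large-stage BMDM. In microglia of those stages they summed to 25.7 to 40.8 and 12.3 to 30.3 CPM. The part of dendritic cell RNA in the BMDM levels was not tested. Some libraries stood apart from the rest. In 12 libraries the quality was doubted. They had under 3000000 counted reads, more than 30000 genes detected or more than 1% of abundant genes at 0. Of these, 3 were blood monocytes. Untitled tumour-free microglia libraries 2 (30933 genes detected) and 3 (985423 counted reads) were also among them. So were small-stage microglia libraries 1 and 4, with 32827 and 34629 genes detected. Microglia markers summed to 7120 and 7180 CPM in tumour-free libraries 2 and 3. In tumour-free libraries 1 and 4 they summed to 17400 and 18900 CPM. In 17 other libraries the share of reads in ribosomal protein genes was at least 1.5 times the median of their group, at 0.257% to 1.39% of reads, and the fourth blood monocyte library was one of them. Calls that end without either set are named beside the result. Levels below are CPM after scaling by the trimmed mean of M values (TMM), and differences are log2 fold changes with their SE from edgeR's quasi-likelihood test, called at a Benjamini-Hochberg adjusted p under 0.05 over all genes tested. In bulk samples, fewer cells of a type and less RNA per cell cannot be told apart.

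Apoe, Apoc1, Apoc4, Abca1, Lpl and Soat1 were higher in microglia from tumour-bearing brains than in tumour-free microglia. At the small stage 6 of the 8 members tested were called higher, where 7.55% of all genes were called higher and 15.4% in either direction. At the large stage 8 of 8 were, where 11.7% of all genes were called higher and 31.9% in either direction. Among all called genes 49.1% were higher at the small stage and 36.7% at the large stage, and with relative log expression (RLE) scaling 33.9% and 23.4%. The median log2 fold change of the members was 2.25 at the small and 2.48 at the large stage, and that of all genes was -0.03 and -0.26. Apoc2 had too few reads to be tested in any comparison.

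Apoe was measured at 620, 1840, 1370 and 727 CPM in the 4 tumour-free microglia libraries. The levels of 1840 and 1370 CPM came from the libraries of doubtful quality. Apoe stood at 6550, 4900, 6240, 8870 and 7590 CPM at the small stage. At the large stage it stood at 8900, 11400, 11100, 9460 and 9530 CPM. Every library from a tumour-bearing brain was above every tumour-free library. The log2 fold change was 2.50 ± 0.31 at the small stage (adjusted p = 2.44e-06, edgeR) and 2.90 ± 0.32 at the large stage (adjusted p = 2.42e-07, edgeR).

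Apoc1, which encodes a small apolipoprotein that inhibits lipoprotein uptake and lipase action, was almost absent from tumour-free microglia, at 1.37, 5.6, 0 and 0.266 CPM. It stood at 25.9, 2.63, 54.9, 72.2 and 84.2 CPM at the small stage and at 95.1, 194, 118, 84.2 and 164 CPM at the large stage. The large-stage libraries did not overlap the tumour-free ones, whereas 1 small-stage library lay among them. The log2 fold change was 4.47 ± 0.93 at the small stage (adjusted p = 0.00133, edgeR) and 5.76 ± 0.97 at the large stage (adjusted p = 9.87e-05, edgeR). Fitted on the compared groups alone, the small-stage call was lost (adjusted p = 0.0778).

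Apoc4, another small apolipoprotein of the cluster, had no read in 3 of the 4 tumour-free libraries and 0.386 CPM in the other. At the small stage it stood at 1.12, 0.484, 3.16, 4.86 and 2.22 CPM, and at the large stage at 4.32, 22.6, 7.93, 4.52 and 17.9 CPM. No tumour library overlapped the tumour-free ones, and the gene was called higher at both stages (adjusted p = 0.00514 and 0.00011, edgeR). Because the tumour-free libraries held 4 reads of Apoc4 in all, its fitted fold depends on the prior count, and the ratio of pooled counts is given instead. That ratio was 20.7 (exact 95% interval 7.92 to 76.9, counting error only) at the small stage and 98.4 (38.3 to 362) at the large stage. The small-stage call was lost when the compared groups were fitted alone (adjusted p = 0.161).

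Abca1 stood at 285, 178, 161 and 324 CPM in tumour-free microglia. At the small stage it stood at 760, 717, 662, 569 and 720 CPM and at the large stage at 940, 906, 711, 670 and 804 CPM. The groups did not overlap, and replicates were close to each other. The log2 fold change was 1.54 ± 0.18 at the small stage (adjusted p = 9.47e-07, edgeR) and 1.64 ± 0.18 at the large stage (adjusted p = 2.38e-07, edgeR).

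Abcg1, the transporter that loads formed particles, stood at 84.9, 32.8, 33.5 and 180 CPM in tumour-free microglia. Small-stage microglia had 114, 188, 273, 79.4 and 126 CPM and large-stage microglia 202, 135, 77.6, 150 and 391 CPM. Both tumour groups overlapped the tumour-free group. The small-stage difference of 0.92 ± 0.42 was not called (adjusted p = 0.132, edgeR), and the large-stage difference of 1.12 ± 0.42 passed narrowly (adjusted p = 0.0406, edgeR). That call was lost without the 12 doubtful libraries (adjusted p = 0.488), without the 17 libraries of high ribosomal protein share (adjusted p = 0.126) and with RLE scaling (adjusted p = 0.0658). It was also lost when tumour-free library 1, 2 or 3 or large-stage library 1 or 5 was left out.

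Lpl stood at 8.96, 8.01, 0.568 and 15.1 CPM in tumour-free microglia. It stood at 52, 34.4, 89.8, 109 and 249 CPM at the small stage and at 211, 162, 468, 160 and 205 CPM at the large stage. The lowest tumour library was above the highest tumour-free one. The log2 fold change was 3.58 ± 0.62 at the small stage (adjusted p = 0.000181, edgeR) and 4.64 ± 0.65 at the large stage (adjusted p = 7.96e-06, edgeR).

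Soat1 stood at 79.3, 54.2, 30.1 and 83.2 CPM in tumour-free microglia, at 155, 104, 170, 142 and 260 CPM at the small stage and at 229, 237, 279, 162 and 260 CPM at the large stage. The groups again did not overlap. Its log2 fold change was 1.42 ± 0.26 at the small stage (adjusted p = 0.000312, edgeR) and 1.78 ± 0.26 at the large stage (adjusted p = 1.45e-05, edgeR). Nr1h3, the gene of LXR alpha, stayed at very low levels in microglia, with 0.996, 0.483, 0 and 0.487 CPM in the untitled tumour-free libraries. At the small stage it stood at 2.62, 1.8, 3.61, 1.24 and 1.81 CPM and at the large stage at 1.47, 2.86, 3.41, 2 and 2.93 CPM. No tumour library overlapped these tumour-free ones. The tumour-free microglia titled 5x2 overlapped both stages, with means of 3.308 CPM at day 3 and 2.266 CPM at day 5. Against the untitled libraries only the large-stage difference of 2.06 ± 0.76 was called (adjusted p = 0.0369, edgeR). The small-stage difference of 1.99 ± 0.75 was not called (adjusted p = 0.0702, edgeR). The Nr1h3 call was lost under RLE scaling (adjusted p = 0.0535), without the filter on low counts (0.0577), without the doubtful libraries (0.197), without those of high ribosomal protein share (0.0591) and when any of 6 of the 9 libraries was left out.

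**Figure D1:**
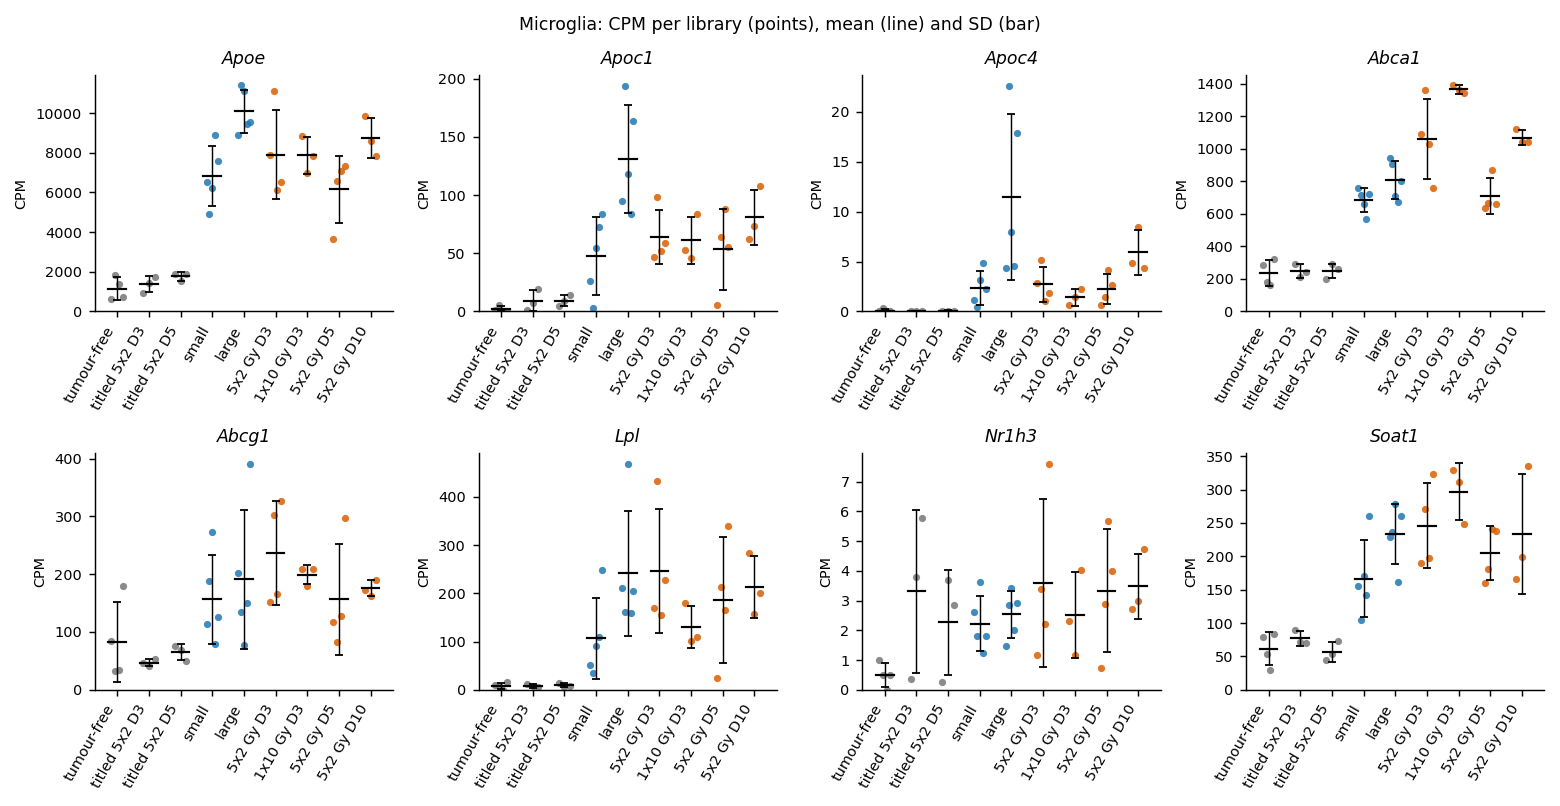
Levels of the 8 members tested in microglia, in CPM on a linear axis, for tumour-free, titled, small-stage, large-stage and irradiated groups; points are libraries, horizontal lines are means and bars are SD cut at 0. Apoe, Abca1, Lpl and Soat1 separate unirradiated tumour groups from tumour-free microglia without overlap, whereas Abcg1 overlaps.

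Marker RNA of other brain cells also differed between these groups. Of 10 astrocyte markers, 9 were lower in microglia from tumour-bearing brains at each stage, and their summed level was 973 to 1680 CPM in tumour-free, 127 to 354 CPM in small-stage and 159 to 358 CPM in large-stage microglia. Astrocytes make Apoe, which was lower in tumour-free microglia, where the astrocyte sum was higher. Among the untitled tumour-free libraries the second had the most of both, with an astrocyte sum of 1680 CPM and 1840 CPM of Apoe. The fourth had a sum of 1640 CPM and 727 CPM of Apoe. Oligodendrocyte markers summed to 307 to 444 CPM in tumour-free, 160 to 230 CPM in small-stage and 186 to 273 CPM in large-stage microglia. Markers of the macrophages that line brain borders summed to 16.6 to 30.7 CPM in tumour-free, 13.7 to 174 CPM in small-stage and 115 to 569 CPM in large-stage microglia, and 4 of the 7 were called higher at the large stage. The part of RNA from astrocytes or any of these other cells in the members' differences was not tested.

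Per kilobase of exon, Apoe was far ahead of the other members in large-stage microglia, with a mean level of 4715 CPM per kb. Apoc1 followed with 176.3 CPM per kb and Abca1 with 77.81 CPM per kb. Abcg1, Soat1 and Lpl were close together at 26.18, 23.83 and 23.02 CPM per kb. Apoc4 stood at 4.511 CPM per kb and Nr1h3 at 1.008 CPM per kb.

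Apoe, Apoc4, Abca1, Lpl and Soat1 were called higher at both days in irradiated tumour microglia than in the tumour-free microglia titled with the same schedule and day. At day 3, 6 of 8 were called higher, where 4.18% of all genes were called higher and 9.28% in either direction. Abcg1 was the sixth at day 3. At day 5, 5 of 8 were, where 6.61% of all genes were called higher and 14.6% in either direction. Apoe stood at 929, 1460 and 1740 CPM in the titled day 3 controls and at 7870, 11100, 6130 and 6510 CPM in tumour microglia at day 3. It stood at 1880, 1520 and 1910 CPM in the titled day 5 controls and at 3630, 6580, 7070 and 7330 CPM in tumour microglia at day 5. At both days the groups were apart, with log2 fold changes of 2.56 ± 0.36 (adjusted p = 2.63e-05, edgeR) and 1.78 ± 0.35 (adjusted p = 0.000786, edgeR). Abca1 showed differences of 2.14 ± 0.21 and 1.48 ± 0.20, Lpl of 4.96 ± 0.75 and 4.30 ± 0.73, and Soat1 of 1.70 ± 0.30 and 1.83 ± 0.30, all called. Apoc4 held 141 reads in tumour microglia and 1 in the titled controls at day 3, a ratio of 114 with an exact 95% interval of 20.1 to 4520, and 121 against 2 reads at day 5, a ratio of 35.1 (9.52 to 293). Abcg1 was called at day 3 only (2.36 ± 0.50, adjusted p = 0.00216, edgeR), and Apoc1 missed the threshold at day 3 (2.80 ± 0.92, adjusted p = 0.0501, edgeR) and passed it when the third titled day 3 library was left out. At day 5 Apoc1 (2.48, adjusted p = 0.063) and Abcg1 (1.26, adjusted p = 0.0752) were not called by edgeR, and whether the days differ was not tested.

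The titled controls did not differ by call from the other tumour-free microglia in any of the 8 members, where 1.91% of all genes were called at day 3 and 1.35% at day 5. Of these called genes 43.1% and 59% were higher, and with RLE scaling 20.5% and 43.5%. At an unadjusted p under 0.05 edgeR gave 2 members at each day, Apoc1 and Nr1h3, where 25.5% and 23.5% of all genes were under it, and DESeq2 called 1 member at day 3 and 0 at day 5. Apoc1 stood at 0.919, 7.56 and 19.6 CPM in the titled day 3 controls and at 4.66, 8.93 and 14.4 CPM in those of day 5, levels that overlapped the untitled controls. Without the doubtful libraries Apoe was called higher at day 5 (1.43, adjusted p = 0.0191, edgeR). Left without the second untitled library, Apoc1 was called at both days, and without the first, Nr1h3 was called at day 3. The astrocyte sum in the titled controls was 583 to 3320 CPM at day 3 and 1600 to 2800 CPM at day 5.

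Tumour stage gave no call among the members in any population. The share of all genes called was 0% in microglia, BMDM and monocytes and 0.0141% in granulocytes. At an unadjusted p under 0.05 edgeR gave 2 members in microglia, 4 in BMDM, 3 in monocytes and 0 in granulocytes, where 12.4%, 6.02%, 3.9% and 8.8% of all genes were under it, and DESeq2 called 0 members in all 4. In microglia these were Apoc4 (2.08 higher on the log2 scale at the large stage) and Lpl (1.06). In BMDM they were Apoe (0.42), Apoc1 (1.54), Apoc4 (1.87) and Abca1 (0.61), all with higher fitted levels at the large stage. In monocytes Apoc1, Apoc4 and Abcg1 had lower fitted levels at the large stage, by -0.82, -2.94 and -1.47 on the log2 scale, and in each of them the fourth small-stage library was the highest.

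After radiotherapy 1 member was called in 1 population: Abca1 in microglia at day 3 of the 10 Gy schedule. There edgeR gave 3 members at an unadjusted p under 0.05, Apoc4, Abca1 and Soat1, where 8.11% of all genes were under it. DESeq2 called Abca1 alone, where it called 165 genes in all. Abca1 stood at 1390, 1360 and 1340 CPM in the irradiated libraries, all above the highest of the 10 unirradiated tumour libraries at 940 CPM. Means were 1364 ± 29.27 CPM (SD, n = 3) and 746.1 ± 112.4 CPM (SD, n = 10), and the log2 fold change was 0.76 ± 0.16 (adjusted p = 0.0493, edgeR), in a comparison that called 0.101% of all genes. The call sits at the threshold. It was lost against the small stage alone (adjusted p = 0.116), against the large stage alone (adjusted p = 0.434), without the filter on low counts (adjusted p = 0.531) and without the libraries of high ribosomal protein share (adjusted p = 0.0703), and it was lost when any of 11 of the 13 libraries was left out.

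After 5 fractions of 2 Gy, Abca1 in microglia stood at 1090, 1360, 1030 and 757 CPM at day 3, at 633, 665, 871 and 658 CPM at day 5 and at 1120, 1040 and 1040 CPM at day 10. The day 10 libraries lay above every unirradiated library, and the day 3 and day 5 libraries overlapped them. None of these differences was called: 0.51 at day 3 (adjusted p = 0.953, edgeR), -0.14 at day 5 (adjusted p = 1, edgeR) and 0.44 at day 10 (adjusted p = 0.909, edgeR). These comparisons called 0.0607%, 0.0354% and 0.00506% of all genes. At an unadjusted p under 0.05 edgeR gave Abca1 alone at days 3 and 10 and no member at day 5, where 1.81%, 4.89% and 2.73% of all genes were under it, and DESeq2 called 0 members at the 3 days. The 2 schedules at day 3 did not differ by call in any member (0% of all genes called; Abca1 0.25, adjusted p = 0.782, edgeR), and edgeR gave 0 members at an unadjusted p under 0.05, where 5.21% of all genes were under it, and DESeq2 0.

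In BMDM no member was called after radiotherapy, where 0.0063% of all genes were called after 10 Gy and 0% in the other 3 comparisons. At an unadjusted p under 0.05 edgeR gave 3 members at day 3 of the 5x2 schedule, 2 after 10 Gy, 2 at day 5 and 2 at day 10, where 5.86%, 9.34%, 7.09% and 6.29% of all genes were under it. DESeq2 called 0 members in each. Soat1 was among them in 3 of the 4 comparisons. It stood at 452, 383 and 374 CPM after 10 Gy, above all unirradiated BMDM libraries, which reached 305 CPM, with a log2 fold change of 0.74 (adjusted p = 0.458, edgeR). Nr1h3 stood at 22, 83.2 and 32.2 CPM in BMDM at day 10 against 4.3 to 50.4 CPM in unirradiated BMDM, a fitted difference of 1.59 (adjusted p = 0.644, edgeR). The effects of the 4 irradiations on the members were also compared between BMDM and microglia, and edgeR called no difference, where 0.00516% of all genes were called at day 3 of the 5x2 schedule and 0% in the others. At an unadjusted p under 0.05 it gave 1 member, Abca1 at day 3, where 5.91% of all genes were under it, and DESeq2 called 0.

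Monocytes and granulocytes had no member called after radiotherapy, where 0% of all genes were called in each comparison. At an unadjusted p under 0.05 edgeR gave 3 members in monocytes at day 3 of the 5x2 schedule, 2 after 10 Gy, 1 at day 5 and 0 at day 10, where 4.12%, 7.65%, 10.1% and 4.79% of all genes were under it. DESeq2 called 1 member, Lpl after 10 Gy, where it called 79 genes in all. Lpl stood at 5.52, 3.05 and 0.494 CPM in those monocytes and at 6.58 to 124 CPM in unirradiated ones, without overlap, and its fitted difference was -3.64 (adjusted p = 0.496, edgeR). In granulocytes edgeR gave 2 members at day 3 of the 5x2 schedule, 2 after 10 Gy, 2 at day 5 and 0 at day 10 at an unadjusted p under 0.05, where 2.9%, 6.02%, 6.96% and 3.32% of all genes were under it. DESeq2 called 2 members at day 5, Apoe and Apoc1, where it called 182 genes in all. Between the 2 schedules at day 3 no member was called (0% of all genes); at an unadjusted p under 0.05 edgeR gave 1 member in BMDM, Lpl, 1 in monocytes, Apoe, and 0 in granulocytes, where 3.84%, 1.57% and 1.86% of all genes were under it, and DESeq2 called 0.

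Within unirradiated tumours, BMDM and microglia differed in 2 of 8 members, where 29.9% of all genes differed, 16.1% higher and 13.8% lower in BMDM. Nr1h3 was higher in BMDM, at 13.1, 10.4, 6.73, 50.4 and 11.4 CPM at the small stage and 13.9, 14.7, 4.3, 19.9 and 6.19 CPM at the large stage. All 10 libraries were above the 10 microglia libraries, which reached 3.61 CPM, and the log2 fold change was 2.62 ± 0.38 (adjusted p = 2.56e-05, edgeR). Abca1 was lower in BMDM, at 316, 261, 598, 587 and 277 CPM at the small stage and 471, 414, 535, 728 and 918 CPM at the large stage. These overlapped microglia, the log2 fold change was -0.60 ± 0.17 (adjusted p = 0.0114, edgeR), and the call was lost without the doubtful libraries (adjusted p = 0.0718). Apoe reached similar levels in both: 6820, 4860, 10800, 9680 and 9010 CPM in small-stage and 9960, 8750, 13000, 11000 and 11100 CPM in large-stage BMDM. Abcg1 was not called, but without the libraries of high ribosomal protein share it was lower in BMDM by -1.10 (adjusted p = 0.000207, edgeR). Leaving out the fifth large-stage BMDM library alone also gave calls for Abcg1 and Lpl. In that library microglia markers summed to 7070 CPM and monocyte markers to 432 CPM. In the other large-stage BMDM libraries they summed to 1130 to 3780 CPM and 1470 to 1960 CPM. The fifth library also had the highest Apoc1, Apoc4, Abca1, Abcg1, Lpl and Soat1 of its group. The part of microglial RNA in these levels was not tested.

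Inflammatory monocytes from tumours had higher Apoe, Apoc1, Abca1 and Soat1 than blood monocytes, 4 of 8 members where 10.6% of all genes were called higher and 26.3% in either direction. Of all called genes 40.2% were higher, and 28.1% with RLE scaling. Apoe stood at 912, 715, 1040 and 1690 CPM in blood monocytes, at 6870, 8210, 6620 and 6950 CPM in small-stage and at 7120, 6760, 6970, 5870 and 5920 CPM in large-stage tumour monocytes. The groups were far apart (2.31 ± 0.27, adjusted p = 9.77e-05, edgeR), and Apoe kept its call without the doubtful libraries. Abca1 stood at 14.9, 21.4, 17.3 and 8.95 CPM in blood monocytes, the lowest group mean of all 28 groups. In tumour monocytes it stood at 372, 480, 235 and 470 CPM at the small stage and at 538, 543, 205, 225 and 58 CPM at the large stage, again without overlap (3.98 ± 0.61, adjusted p = 0.000609, edgeR).

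Apoc1 differed by 2.09 ± 0.44 (adjusted p = 0.00453, edgeR) and Soat1 by 1.46 ± 0.39 (adjusted p = 0.0139, edgeR) between tumour and blood monocytes. Leaving out the doubtful libraries takes 3 of the 4 blood libraries away, so that the lone one, itself of high ribosomal protein share, is assumed to vary like the other groups. Apoc1 (adjusted p = 0.446), Abca1 (5.30, adjusted p = 0.0685) and Soat1 (adjusted p = 0.589) then lost their calls. In the fourth blood library, the one that remains, Soat1 stood at 270 CPM, against 32.6, 54.9 and 92.9 CPM in the others. Without that library, and the others of high ribosomal protein share, Abcg1 was called higher in tumour monocytes as well (1.62, adjusted p = 0.00117, edgeR). That setting called 13569 genes in all, against 4127 with every library, and its blood libraries were the 3 of doubtful quality. The Soat1 call was lost without the second blood library.

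BMDM against blood monocytes gave 5 of 8 members, where 9.59% of all genes were called higher and 32.8% in either direction. Of all called genes 29.3% were higher, and 17.8% with RLE scaling. Abca1 differed by 4.67 ± 0.46 (adjusted p = 2.32e-05, edgeR) and Apoe by 2.90 ± 0.39 (adjusted p = 0.000211, edgeR), and both kept their calls without the doubtful libraries. Apoc1 (2.96 ± 0.71, adjusted p = 0.0117), Lpl (1.91 ± 0.56, adjusted p = 0.0227) and Apoc4 (3.81 ± 1.35, adjusted p = 0.0411) were called by edgeR with all libraries and lost without the doubtful ones (adjusted p = 0.406, 0.405 and 0.154). Lpl was also lost without blood library 2 or 3, and Apoc4 with RLE scaling (adjusted p = 0.0692) and without any of 10 of the 14 libraries. Without the libraries of high ribosomal protein share Abcg1 (1.67) and Soat1 (1.71) were called higher in BMDM. That setting called 11717 genes in all, against 6484 with every library, and the blood libraries left were the 3 of doubtful quality. This comparison shares its blood libraries with the previous one. Microglia markers moved with it: 7 of 8 were called higher in BMDM than in blood monocytes, with summed levels of 1440 to 4270 CPM in small-stage BMDM, 1130 to 7070 CPM in large-stage BMDM and 153 to 295 CPM in blood. In tumour monocytes 3 of the 8 were called higher, with sums of 754 to 1680 CPM, and the part of microglial RNA in the members' differences was not tested.

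Between the tumour's own BMDM and monocytes 2 of 8 members were called, where 13.8% of all genes were, 7.22% higher and 6.59% lower. The median log2 fold change of the members was 0.54, and that of all genes was 0.04. With edgeR 4 members were at an unadjusted p under 0.05, Apoe, Lpl, Nr1h3 and Soat1, where 27% of all genes were under it. DESeq2 called the same 4, where it called 2884 genes in all. Apoe was higher in BMDM (0.51 ± 0.14, adjusted p = 0.0176, edgeR) and Soat1 lower (-0.59 ± 0.15, adjusted p = 0.0107, edgeR), and for both the libraries of the groups overlapped. The Apoe call was lost without the libraries of high ribosomal protein share (adjusted p = 0.0685) and without small-stage monocyte library 1 or 3. Nr1h3 had its highest levels in monocytes, with 59.4, 39.2, 40 and 132 CPM at the small stage and 39.8, 41.6, 0, 27.6 and 39.6 CPM at the large stage. Blood monocytes had 7.33, 9.6, 16.9 and 41.7 CPM, which overlapped them.

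**Figure D2:**
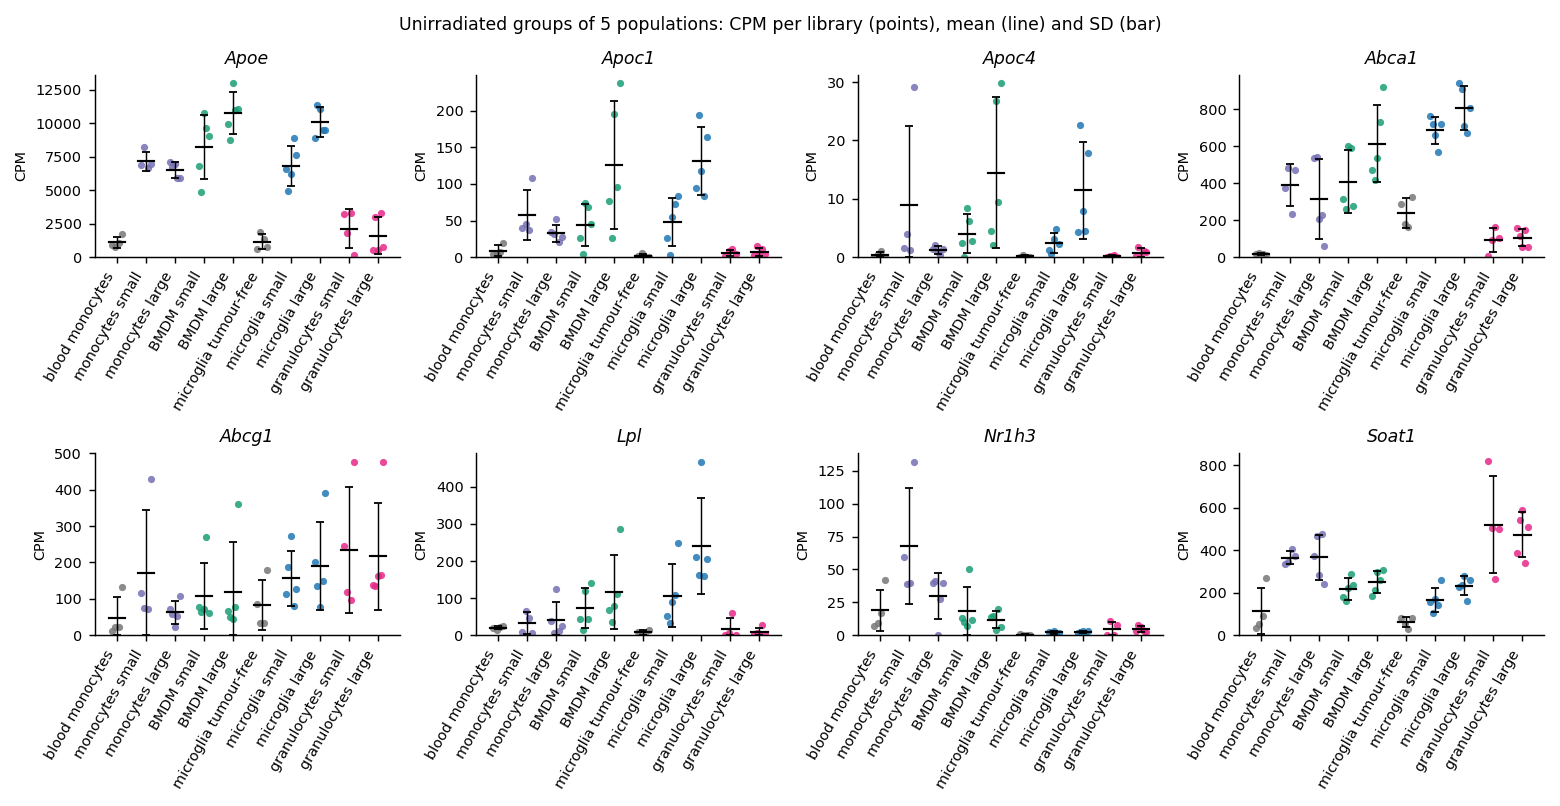
Levels of the members in blood monocytes, in tumour-free microglia and in the 4 unirradiated tumour populations, in CPM on a linear axis; points are libraries, horizontal lines are means and bars are SD cut at 0. Apoe and Abca1 are low in blood monocytes, Nr1h3 is highest in tumour monocytes, and the means of Soat1 and Abcg1 are highest in granulocytes.

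Granulocytes differed from tumour monocytes in 7 of 8 members, where 49.9% of all genes differed: 5 were lower (26.9% of all genes) and 2 higher (23% of all genes). Soat1 was higher in granulocytes, at 818, 504, 265 and 498 CPM at the small stage against 337, 347, 404 and 373 CPM in small-stage monocytes, with overlap (0.73 ± 0.25, adjusted p = 0.0208, edgeR). Abcg1 was also higher, at 244, 118, 98.3 and 476 CPM at the small stage and 139, 136, 164, 166 and 477 CPM at the large stage, against 71 to 428 CPM and 22.5 to 109 CPM in monocytes (1.34 ± 0.43, adjusted p = 0.013, edgeR). Lower were Apoc1 (-2.46 ± 0.48, adjusted p = 0.000224), Apoc4 (-2.99 ± 0.84, adjusted p = 0.0054), Abca1 (-1.59 ± 0.46, adjusted p = 0.00681) and Nr1h3 (-2.93 ± 0.81, adjusted p = 0.00455), all by edgeR. The calls of Soat1 and Apoc4 were lost without the libraries of high ribosomal protein share (adjusted p = 0.0729 and 0.0877), that of Soat1 without the filter (adjusted p = 0.207) and that of Apoc4 without the fourth small-stage monocyte library. Lpl (-1.36, adjusted p = 0.163, edgeR) was called once the third small-stage granulocyte library was left out.

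**Figure D3:**
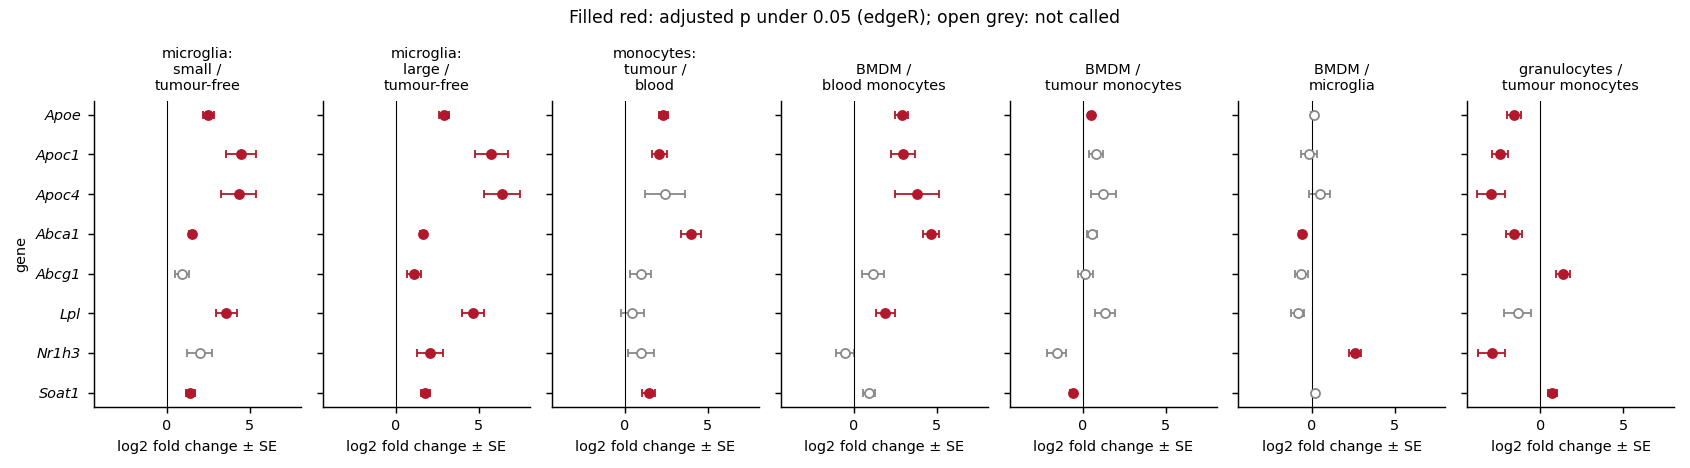
Fitted log2 fold changes of the 8 members with their SE in 7 comparisons, of microglia with tumour-free microglia and between populations; filled points passed the adjusted p threshold and open points did not. All called members are higher in tumour than in tumour-free or blood cells, and in granulocytes 5 are lower and 2 higher than in tumour monocytes.

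Apoe in granulocytes stood at 3190, 1760, 3270 and 170 CPM at the small stage and at 517, 3020, 499, 3270 and 724 CPM at the large stage, so libraries of 1 group lay several-fold apart. It was called lower than in monocytes (-1.62 ± 0.42, adjusted p = 0.00272, edgeR), and the groups did not overlap. With RLE scaling the difference was -0.78 (adjusted p = 0.323) and with DESeq2 -0.78 (adjusted p = 0.266). After 5x2 Gy at day 5 granulocytes held 505, 350, 309 and 215 CPM, which is the lowest group mean of Apoe among the 28 groups. Microglia markers summed to 3310 CPM in the small-stage granulocyte library with 3270 CPM of Apoe and to 419 CPM in the one with 170 CPM. At the large stage they summed to 1190 CPM in the library with 3270 CPM of Apoe and to 335 CPM in the one with 499 CPM. At day 3 of the 5x2 schedule they summed to 781 CPM in the library with 1530 CPM of Apoe and to 479 CPM in the one with 270 CPM. At day 10 they summed to 1370 CPM with 3040 CPM of Apoe and to 628 CPM with 536 CPM. The remaining groups ran the other way. At day 5 of the 5x2 schedule the library with the least Apoe, 215 CPM, had the highest microglia sum of its group, 889 CPM. After 10 Gy the library with the most Apoe, 691 CPM, had the lowest, 252 CPM. Monocyte markers summed to 3720 and 4260 CPM in the small-stage libraries with 3270 and 170 CPM of Apoe, and to 1800 and 2700 CPM in the large-stage ones with 3270 and 499 CPM. Border macrophage markers summed to 151, 11.2 and 5.48 CPM in the small-stage libraries with 3270, 3190 and 170 CPM of Apoe. In the large-stage libraries with 3270 and 499 CPM they summed to 156 and 19.9 CPM. The part of RNA from other myeloid cells in granulocyte Apoe was not tested.

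Over all 28 groups each member had its own order of levels. Group means of Apoe ran from 344.6 CPM in granulocytes at day 5 of the 5x2 schedule to 10760 CPM in large-stage BMDM. Apoc1 was highest in large-stage microglia at 131.2 ± 46.66 CPM (SD, n = 5), and Apoc4 in large-stage BMDM at 14.49 ± 12.88 CPM (SD, n = 5). Abca1 was highest in microglia after 10 Gy at 1364 CPM, and Lpl in microglia at day 3 of the 5x2 schedule at 246.2 ± 128.3 CPM (SD, n = 4). Abcg1 was highest in granulocytes at day 3 of the 5x2 schedule at 370.6 ± 190.2 CPM (SD, n = 4), Soat1 in monocytes after 10 Gy at 523.1 ± 13.84 CPM (SD, n = 3) and Nr1h3 in monocytes at day 10 at 80.27 ± 23.28 CPM (SD, n = 3). Neighbours in these orders mostly did not differ beyond their spread: of 27 neighbouring pairs, 25 to 27 had overlapping libraries, depending on the member.

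**Figure D4:**
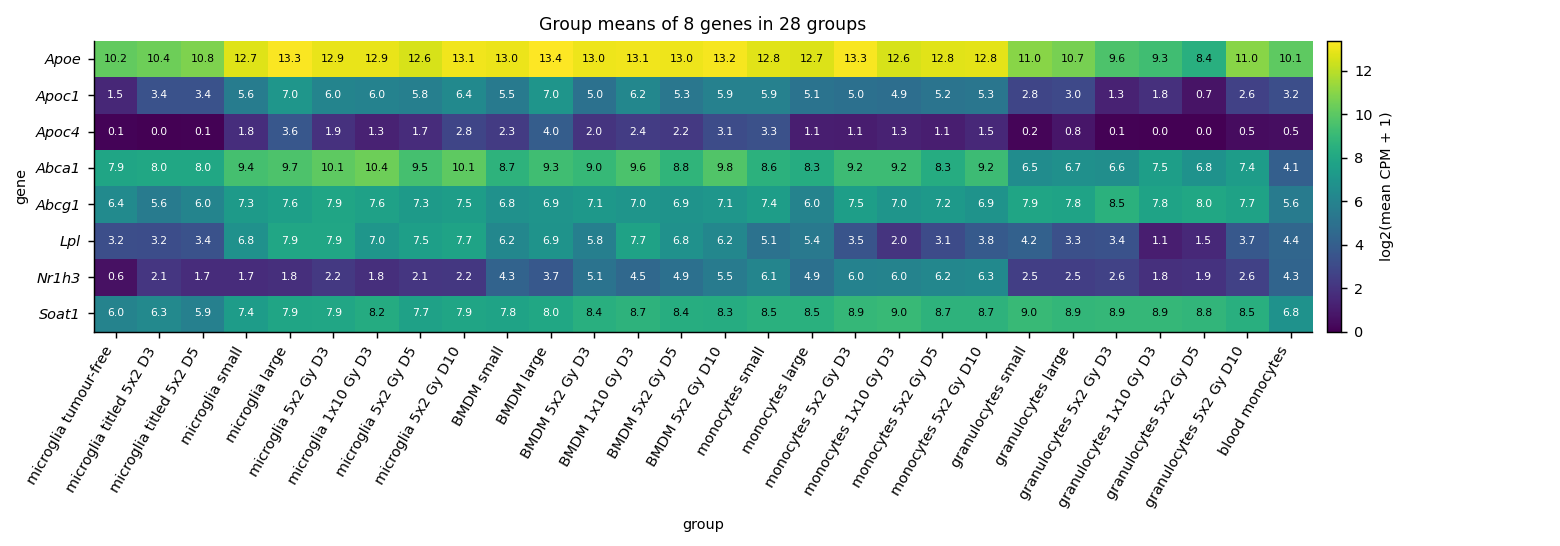
Heatmap of the group means of 8 members (rows) in the 28 groups (columns); colour and printed values are log2 of mean CPM plus 1. Apoe is high in all microglia, BMDM and monocyte groups from tumours, and Nr1h3 is low in all microglia groups.

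Apoc2, the activator of lipoprotein lipase, was close to undetected, with 168 reads in all 108 libraries and no group mean above 0.4237 CPM. Of its 813 exon bases, 646 are shared with the read-through transcript Gm44805 on the same strand, which had 0 reads, and how the counting treated such bases is not given in the sources used here. Its level is therefore uncertain. Apoc4 shares 119 of its 2537 exon bases with that transcript, and Nr1h3 shares 34 of 2515 with Gm13783.

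Across the 28 group means the gene most like Apoe was Axl, a receptor tyrosine kinase used by macrophages to take up dying cells, with a Pearson r of 0.983 among 11234 genes. Apoc1 came close to Apoe as well, at 0.948. Lpl was most like Cst7, which encodes cystatin F, at 0.955, Soat1 most like Plin2, the coat protein of lipid droplets, at 0.962, and Abca1 most like Ctsa, a lysosomal protease, at 0.941. Nr1h3 was most like Fam83f at 0.967, Apoc4 most like Gpx3, a secreted peroxidase, at 0.894, and Abcg1 most like Il4ra, the interleukin-4 receptor chain, at 0.849. These are descriptions over groups that share populations and mice of the same schedules.

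Abcg1 stood apart from the other members in its spread between replicates. In 16 of the 17 libraries with a high share of ribosomal protein reads, Abcg1 was above the median of the other libraries of its group, with a median log2 ratio of 1.35. The other members were above it in 8 to 13 of the 17, with median log2 ratios from -0.03 for Apoe to 0.36 for Nr1h3. The library with the most Abcg1 was also the one with the highest ribosomal protein share in 19 of 28 groups, and for the other members this held in 7 to 11 groups. Among the 17 were the fifth large-stage library and the fourth library at days 3 and 5 of the 5x2 schedule, in all 4 populations from tumours. The part of library quality in the Abcg1 levels was not tested, and the calls without the 17 libraries are given above.

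**Figure D5:**
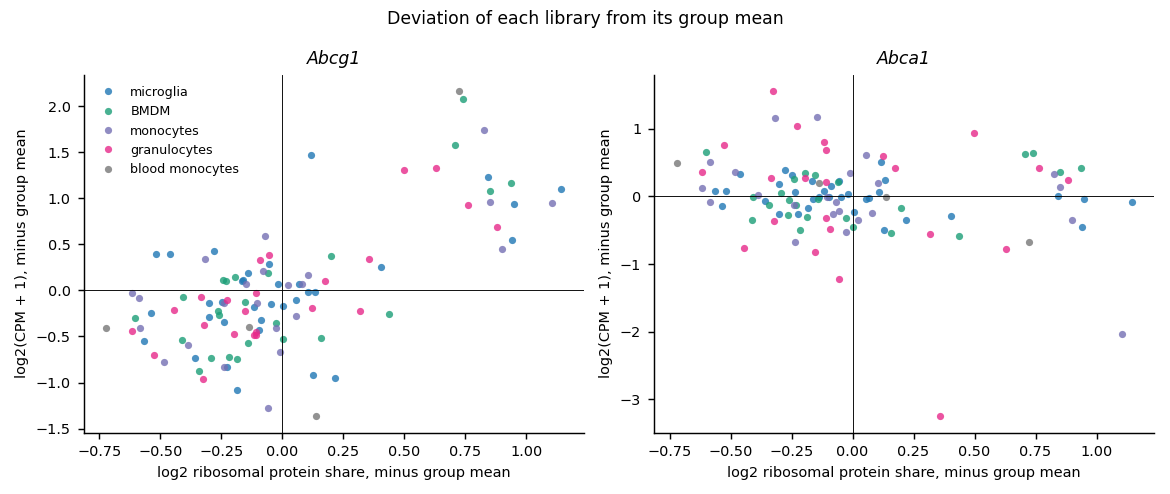
Deviation of log2(CPM + 1) of Abcg1 (left) and Abca1 (right) from the group mean, against the deviation of the log2 ribosomal protein share; each point is a library, coloured by population. The libraries of high share at the right lie above 0 for Abcg1 and on both sides of 0 for Abca1.

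Genes of the same lipid pathways were followed in the comparison of large-stage with tumour-free microglia. In that comparison 11.7% of all genes were called higher and 31.9% in either direction. Of 14 genes of lipid storage and hydrolysis, 10 rose and 0 fell (median log2 fold change 1.21, all genes -0.26). Plin2 rose by 3.29 ± 0.38, from 42.87 to 460.1 CPM, Fabp5, a fatty acid carrier, by 3.89 ± 0.77, and Lipa, the lysosomal acid lipase that frees cholesterol, by 1.64 ± 0.28. Of 11 lipoprotein uptake receptors 4 rose and 1 fell, among them the scavenger receptors Msr1 (5.26 ± 0.72), Cd36 (2.31 ± 0.62) and Scarb1 (1.28 ± 0.21). At the small stage 7 of the 14 storage genes and 3 of the 11 receptors rose, and none fell, where 7.55% of all genes were called higher.

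Of 13 other targets and partners of LXR, 1 rose at each stage and 0 fell, a share near that of all genes called higher (7.55% at the small and 11.7% at the large stage). The one at the large stage was Cd5l, a secreted macrophage protein, at 35.55 ± 37.52 CPM against 0.2351 CPM (6.91 ± 1.37, adjusted p = 0.00066, edgeR). Of 17 genes of cholesterol synthesis 2 rose and 3 fell at the large stage, no larger a share than the 31.9% of all genes called, with Insig1 at 1.59 ± 0.46 and Msmo1 at -0.54 ± 0.19. Of 10 genes of sterol transport and oxysterols 3 rose: Ch25h, the enzyme that makes 25-hydroxycholesterol, by 5.77 ± 1.09, Tspo by 2.33 ± 0.29 and Npc2 by 0.91 ± 0.23. Of 7 tested genes of other apolipoproteins and lipase regulators, 2 rose and 3 fell. Apob rose by 3.87 ± 0.66, and the astrocyte-made apolipoproteins Clu (-4.74 ± 0.96) and Apod (-2.77 ± 1.06) fell with the astrocyte markers.

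Between populations the same lists split in other ways. In BMDM against microglia 16.1% of all genes were called higher and 13.8% lower. There 12 of 16 cholesterol synthesis genes were higher and 1 lower, led by Srebf2 (1.46 ± 0.18), the regulator of the pathway. Of the 13 LXR genes 2 were higher, a share near that of all genes, and 4 lower. The 2 higher ones were Pltp (2.78 ± 0.31), the phospholipid transfer protein, and Smpdl3a (2.22 ± 0.14), and Mertk (-1.70 ± 0.28) was among the lower ones. In tumour against blood monocytes 4 LXR genes were higher and 1 lower, with Mertk at 3.13 ± 0.64 and Mylip, which degrades the LDL receptor, at 2.29 ± 0.30. Of all genes 10.6% were called higher there and 26.3% in either direction. In granulocytes against monocytes 9 of 17 synthesis genes and 7 of 10 uptake receptors were lower, where 26.9% of all genes were. Of 14 storage genes 9 were higher, where 23% of all genes were, with Pnpla2, the main triglyceride lipase, at 2.70 ± 0.24 and Dgat2 at 2.32 ± 0.26. No gene of these lists was called in any radiotherapy or stage comparison.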

How the data were processed

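Myeloid cells were sorted by flow cytometry and total RNA was sequenced, per the labels' protocols. The authors deposited 1 table of raw counts per gene and library, with 49585 genes and 108 libraries. Per the submitters' processing notes, FastQC, TopHat2 2.0.14, HTSeq, DESeq2 1.18.1 and GRCm38 were used; no setting or strand of counting was found in the labels or headers. From these counts, edgeR 4.0.16 (R 4.3.3, limma 3.58.1) was run with the default filter on low counts (minimum count 10, total 15), TMM factors, 1 mean per group and the quasi-likelihood F-test, with Benjamini-Hochberg adjustment over all genes tested. Each comparison used the fit of its population or populations; unirradiated references average both stages. The fold changes' SE is the size of the fold change over the root of F. Levels used TMM factors over all 108 libraries. The script was tested on simulated counts. The 9 members, and the lists of lipid and marker genes, were chosen with earlier results of these data known. Named genes of a list were the up to 4 with the lowest adjusted p among those called and with a mean of at least 10 CPM in the higher group, and the genes most like a member were those with the highest Pearson r over group means. Alternatives were DESeq2 1.42.0, RLE factors, no filter, the compared groups alone, 1 stage as reference, a replicate block, no doubtful libraries and each library left out. Leaving out the 17 libraries with high ribosomal protein share was chosen after seeing the data. Replicates of a group differed beyond sampling noise (smallest chi-square per degree of freedom 10.7).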

Additional observations from a re-analysis of the deposited data

Results flagged for a closer look

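In groups of 4 or 5 libraries, 17 of the 143 sets of member levels (11.9%) had 1 library far from the rest, where chance gives about 1 in 20. Abcg1 had 6 of them: 133 CPM in the fourth blood monocyte library, 271 CPM in the fourth small-stage BMDM library, 428 CPM in the fourth small-stage monocyte library, 360 CPM in the fifth large-stage BMDM library, 477 CPM in the fifth large-stage granulocyte library and 268 CPM in the fourth monocyte library at day 5 of the 5x2 schedule. The fourth small-stage monocyte library also stood apart for Apoc1 (108 CPM) and Apoc4 (29.2 CPM), and the fourth small-stage BMDM library for Nr1h3 (50.4 CPM).

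Lpl stood apart in 5 groups: 60.7 CPM in the third small-stage granulocyte library, 468 CPM in the third large-stage microglia library, 124 CPM in the third large-stage monocyte library, 27.3 CPM in the fourth large-stage granulocyte library and 34.4 CPM in the second granulocyte library at day 3 of the 5x2 schedule. That last library also stood apart for Apoc4 at 0.273 CPM, as the second tumour-free microglia library did at 0.386 CPM, in both cases because the other libraries of the group held no read. Abca1 reached 871 CPM in the third microglia library at day 5 of the 5x2 schedule, above the other 3.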

How the results depend on the processing

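Of 306 tests of a member in a comparison, 46 were called; 30 of these kept the call in every setting and with each library left out, 16 lost it in some setting, 8 lost it with some library left out, and none of the 306 reversed. RLE factors moved 29 of 252 mean levels by more than the spread. The stage count of 0 became 1 without the filter. The microglia radiotherapy count of 1 became 0 without the filter, with the replicate block, with the small or the large stage alone as reference and without libraries of high ribosomal protein share, and was 0 to 1 with single libraries left out. The monocyte radiotherapy count of 0 became 1 with DESeq2 and 2 without the filter, and the granulocyte count of 0 became 2 with either. The titled-control count of 0 became 1 with DESeq2 and 1 without doubtful libraries (0 to 2 with single libraries left out). BMDM against microglia went from 2 to 4 with the block and 1 without doubtful libraries (2 to 4), tumour against blood monocytes from 4 to 7 without the filter and 1 without doubtful libraries (3 to 5), BMDM against blood monocytes from 5 to 2 without doubtful libraries (3 to 7), and BMDM against tumour monocytes from 2 to 4 with DESeq2, 1 with the block and 1 without libraries of high ribosomal protein share (1 to 4). The cause was not tested. Same-numbered libraries did not all deviate together (r over 0.1 in 18 of 24 pairs of BMDM and microglia, 20 of 23 of BMDM and monocytes, 15 of 23 of granulocytes and monocytes), though in 18, 19 and 17 of them the library correlated best with its own number, a hint from the data and not the design, so the replicate block pairs shared numbers only. With RLE factors the all-gene median shifted by -0.19 and -0.25 in small- and large-stage against tumour-free microglia, -0.24 and -0.34 in tumour monocytes and BMDM against blood, -0.17 and -0.10 in the titled controls and -0.20 to -0.28 in the granulocyte comparisons other than day 10 and that of the schedules. Counts over all genes ran from 466 to 4508 around 3035 (small-stage against tumour-free microglia), 1095 to 7178 around 6309 (large-stage), 211 to 24097 around 4127 (tumour against blood monocytes), 599 to 18243 around 6484 (BMDM against blood), 0 to 2357 around 378 and 0 to 2030 around 266 (titled controls), 883 to 3339 around 1834 and 1370 to 5223 around 2888 (tumour against titled microglia) and 0 to 1653 around 2 (granulocyte stage). Those of radiotherapy, at most 20 in microglia, 1 in BMDM and 0 in monocytes and granulocytes, reached 165, 64, 186 and 218, and the stage counts of 0 reached 20 in microglia, 9 in BMDM and 158 in monocytes. Depth limits Apoc2, Apoc4 and microglial Nr1h3 most, since their groups held few reads.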
